A study of Mus musculus with 8 samples.

Results

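The NRF2 antioxidant program was followed through 10 genes, Nfe2l2, Keap1, Nqo1, Gclm, Gclc, Srxn1, Txnrd1, Slc7a11, Hmox1 and Gsr, which were picked by name and found among the 52636 Ensembl genes of the count table through their GENCODE vM21 symbols. All 10 were found, and all 10 passed the filter on low counts. RNA was sequenced from primary microglia of wild-type (WT) C57BL/6 mice (the study's methods list C57BL/6N pups), 4 libraries treated with LPS, a bacterial lipopolysaccharide that activates these brain macrophages, at 5 µg/ml and 4 with vehicle, each for 24 h. The microglia of both groups were shaken off mixed glial cultures of neonatal brain and were kept in serum with CSF-1, the growth factor on which they depend, so astrocytes and other glia of the mother culture were possible companions. The comparison asks what LPS changed in the RNA of these cells. Levels are given as CPM, counts per 1000000 counts of a library after TMM scaling of the library sizes, and changes as the log2 fold change of LPS over vehicle with its standard error (SE), tested with edgeR's quasi-likelihood test and Benjamini-Hochberg adjustment over all 13847 genes that passed the filter. Replicate numbers come from the labels, which call the libraries biological replicates.

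Library totals ran from 20071921 to 30604447 counts. Of 10 microglia markers, 10 were detected, and their summed level was 8904 to 10601 CPM in vehicle and 2192 to 2608 CPM after LPS, with 7 lower, 1 higher (Itgam) and 2 not past the test. Summed markers of other cell types were far lower: 21.1 to 52.5 CPM in vehicle and 42.5 to 125 CPM after LPS for 10 astrocyte markers, 199 to 225 and 189 to 243 CPM for 10 oligodendrocyte lineage markers, 0.0710 to 3.68 and 5.14 to 20.9 CPM for 5 fibroblast markers, and 31.0 to 73.5 and 163 to 254 CPM for 5 endothelial markers. The astrocyte sum after LPS was mostly Gja1, a gap junction gene, while Gfap, Aqp4 and Aldh1l1 were called lower. The oligodendrocyte lineage sum was mostly Mbp and Cnp, and Sox10 and Mog stayed under 1 CPM in every library. Other markers of this lineage were present in vehicle, with Cspg4 at 11.5 to 24.0 CPM. Pdgfra (0.381 to 16.7 CPM), Olig1 (2.06 to 13.8 CPM) and Olig2 (0.888 to 6.75 CPM) differed widely between vehicle libraries and were lowest in vehicle replicate 3. Of the endothelial markers, Pecam1, Cdh5 and Flt1 were higher after LPS, and Cldn5 and Tek never passed 3 counts in a library. In all, 1 of 9 tested astrocyte markers was called higher and 3 lower, 1 of 8 tested oligodendrocyte lineage markers higher and 4 lower, and the 1 tested fibroblast marker, Dcn, higher. With the replicate number as a block, Tmem119, Aldoc, Fgfr3 and Pdgfra were called lower as well (edgeR adjusted p = 9.11e-04, 0.0103, 6.33e-03 and 6.39e-03), a microglia, 2 astrocyte and an oligodendrocyte lineage marker. The part of these cells in the results below was not tested, and in bulk RNA fewer cells of a type cannot be told apart from less RNA per cell.

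NRF2, the product of Nfe2l2, is a transcription factor that raises genes for antioxidant and detoxifying enzymes. In unstressed cells the adaptor KEAP1 holds it in a complex with the ubiquitin ligase CUL3, which sends it to the proteasome, and electrophiles or oxidants that modify KEAP1 cysteines let it escape to the nucleus. There it pairs with small MAF proteins on the antioxidant response element. Its targets make glutathione, recycle oxidised glutathione and thioredoxin, and break down heme and quinones. Activated macrophages produce reactive oxygen species that such enzymes remove.

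Of the 10 members, 7 were higher and 1 was lower after LPS at an adjusted p under 0.05 with edgeR. Across all genes tested, 64.1% were called, 30.3% higher and 33.8% lower, so calls in either direction were common in these libraries. The median log2 fold change of the members was 1.70, against −0.11 over all genes tested. The genes that rose most were Slc7a11, which imports cystine, Gsr, which reduces glutathione, and Hmox1, which degrades heme. The gene of the factor itself, Nfe2l2, was the one that fell, and the genes of the glutathione-making enzyme, Gclm and Gclc, did not pass the test. In 6 of the 10 all LPS libraries lay above all vehicle libraries, and in 1 they all lay below, beside 60.2% of all genes tested without overlap, 28.7% higher and 31.5% lower.

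**Figure D1:**
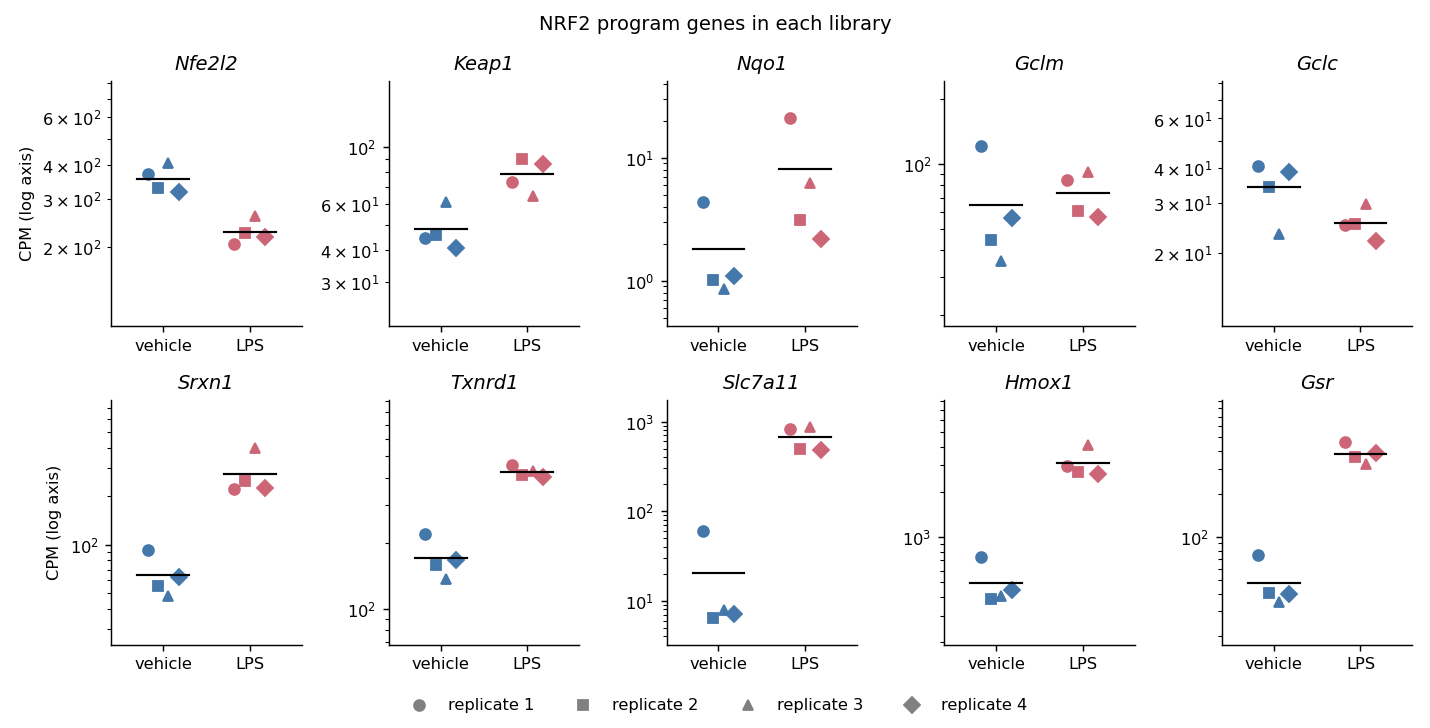
CPM (log axis) of the 10 genes in each of the 4 vehicle and 4 LPS libraries, with 1 symbol per replicate number and a bar at the group mean. The groups overlap for Nqo1, Gclm and Gclc and for none of the other 7 genes, and vehicle replicate 1 (circle) is the highest vehicle library for 8 of the 10.

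Nfe2l2 (ENSMUSG00000015839), which encodes NRF2, lies on the minus strand at chr2:75675513-75704641 of GRCm38. In vehicle replicates 1 to 4 it had 372, 330, 407 and 319 CPM, and in LPS replicates 1 to 4 it had 205, 226, 260 and 218 CPM. Every LPS library was below every vehicle library. The mean fell from 357 ± 40.4 to 227 ± 23.3 CPM (SD, n = 4 each), a log2 fold change of −0.65 (SE 0.12, edgeR adjusted p = 1.23e-03). Nfe2l2 was still an abundant transcript after LPS.

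Keap1 (ENSMUSG00000003308), the adaptor that holds NRF2 in the cytoplasm, lies on the minus strand at chr9:21229730-21239361. It had 44.5, 45.6, 60.9 and 40.6 CPM in the vehicle libraries and 73.1, 89.6, 64.5 and 85.6 CPM after LPS. After scaling, the groups did not overlap, though vehicle replicate 3 and LPS replicate 3 lay close to each other. Keap1 rose by a log2 fold change of 0.71 (SE 0.15, edgeR adjusted p = 2.66e-03). Its raw counts did overlap, at 1144 to 1920 in vehicle and 1221 to 1645 after LPS, so this call depends on the scaling of the libraries. Exons of Gm16754 on the opposite strand cover 10.9% of its exonic bases, and whether counting used the strand is not given in the sources used here.

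Within each library, the ratio of Nfe2l2 to Keap1 counts needs no scaling between libraries. On the log2 scale it was 3.06, 2.86, 2.74 and 2.97 in vehicle replicates 1 to 4 and 1.49, 1.33, 2.01 and 1.35 in the LPS replicates. The RNA of the factor thus stood closer to the RNA of its inhibitor in every LPS library than in any vehicle library. The difference was −1.36, from 2.91 ± 0.14 to 1.55 ± 0.32 (SD, n = 4 each, two-sided exact permutation test p = 0.0286, adjusted p = 0.0429 over 3 ratios), and 0.0286 is the smallest p that 4 libraries against 4 allow. Within same-numbered pairs it ranged from −1.63 to −0.73 (exact permutation of signs within pairs, p = 0.125, which is as low as 4 pairs can go).

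Slc7a11 (ENSMUSG00000027737) encodes the light chain of the exchanger that brings in cystine, the precursor of glutathione, in return for glutamate. It lies on the minus strand at chr3:49892526-50443614. In the vehicle libraries it had 60.1, 6.50, 7.99 and 7.10 CPM, and in the LPS libraries 822, 493, 881 and 478 CPM. Every LPS library was above every vehicle library, but vehicle replicate 1 stood 8.35-fold above the mean of the other vehicle libraries. The mean rose 32.7-fold, with a log2 fold change of 5.03 (SE 0.82, edgeR adjusted p = 4.54e-04). Without vehicle replicate 1 the log2 fold change was 6.56 (edgeR adjusted p = 1.95e-06). Of all genes tested, 98.3% had a lower log2 fold change than Slc7a11.

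The heavy chain of the same exchanger is encoded by Slc3a2, which also serves other amino acid transporters. Slc3a2 rose from between 258 and 280 CPM to between 665 and 772 CPM (log2 fold change 1.44, SE 0.11, edgeR adjusted p = 4.08e-06). The log2 ratio of Slc7a11 to Slc3a2 counts was −2.13, −5.43, −5.02 and −5.18 in the vehicle libraries and 0.31, −0.65, 0.39 and −0.68 after LPS. The light chain went from far below the heavy chain to about the same count, a difference of 4.28 (exact permutation test, two-sided, p = 0.0286, adjusted p = 0.0429 over 3 ratios). Slc7a11 has longer exons, so equal counts are not equal levels. Per kilobase of exon Slc7a11 stood at 1.47 CPM against 75.1 for Slc3a2 in vehicle. After LPS it was still lower, at 48.0 against 204 CPM per kilobase. Within same-numbered pairs the difference ranged from 2.43 in replicate 1 to 5.41 (exact permutation of signs within pairs, p = 0.125).

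Glutathione is made in steps that start with glutamate-cysteine ligase, a catalytic subunit (Gclc, ENSMUSG00000032350, plus strand, chr9:77754535-77794485) and a modifier subunit (Gclm, ENSMUSG00000028124, plus strand, chr3:122245557-122270732). Gclc had 40.7, 34.3, 23.4 and 38.8 CPM in the vehicle libraries and 25.1, 25.3, 29.8 and 22.0 CPM after LPS. Its groups overlapped through vehicle replicate 3 alone (log2 fold change −0.42, SE 0.18, edgeR adjusted p = 0.0570). Without that library the log2 fold change was −0.51 (edgeR adjusted p = 6.26e-03), without LPS replicate 3 it was −0.50 (edgeR adjusted p = 0.0380), and with upper quartile normalization −0.59 (edgeR adjusted p = 0.0146).

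Gclm had 121, 44.6, 35.6 and 56.1 CPM in the vehicle libraries and 84.5, 60.4, 91.6 and 57.0 CPM after LPS. Vehicle replicate 1 was the highest of all 8 libraries, and the other 3 vehicle libraries lay below all LPS libraries. Over all libraries the log2 fold change was 0.19 (SE 0.35, edgeR adjusted p = 0.657), and without vehicle replicate 1 it was 0.73 (edgeR adjusted p = 0.0149). The result for Gclm thus rested on 1 library. Exons of Gm17494 on the opposite strand and of Gm6061 on the same strand cover 4.71% and 3.88% of the exonic bases of Gclm.

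The log2 ratio of modifier to catalytic subunit counts was 1.57, 0.38, 0.60 and 0.53 in the vehicle libraries and 1.75, 1.25, 1.62 and 1.37 after LPS. It was higher after LPS within each same-numbered pair, by 0.17 to 1.02 (exact permutation of signs within pairs, p = 0.125). Between the groups the difference was 0.73 (two-sided exact permutation test p = 0.0857, adjusted p = 0.0857 over 3 ratios) and did not pass, with vehicle replicate 1 inside the LPS range. Without vehicle replicate 1 it was 0.99.

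**Figure D2:**
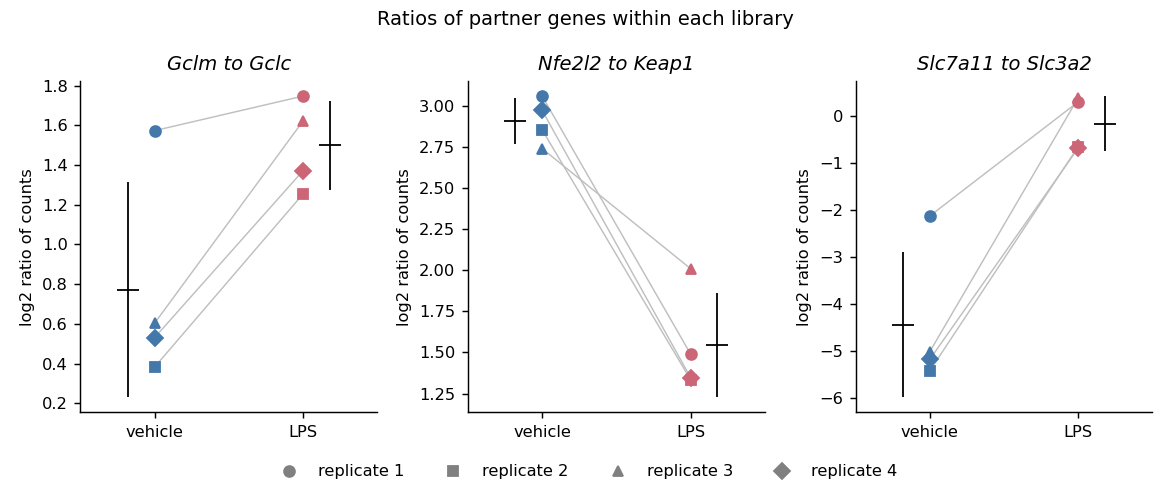
log2 ratio of counts of Gclm to Gclc, Nfe2l2 to Keap1 and Slc7a11 to Slc3a2 in each library, with grey lines joining same-numbered vehicle and LPS libraries and black bars for the mean and SD of 4 libraries. The ratio of Nfe2l2 to Keap1 falls in all 4 pairs and the other ratios rise in all 4, with vehicle replicate 1 (circle) well above the other vehicle libraries in the left and right panels.

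Gsr (ENSMUSG00000031584), glutathione reductase, returns oxidised glutathione to its reduced form with NADPH. It lies on the plus strand at chr8:33652523-33698163. Its levels were 74.2, 40.6, 35.1 and 39.4 CPM in the vehicle libraries and 462, 365, 327 and 387 CPM after LPS. All LPS libraries were several times above all vehicle libraries. The mean rose 8.14-fold, with a log2 fold change of 3.02 (SE 0.25, edgeR adjusted p = 6.67e-06), the smallest adjusted p of the 10 members. So the gene that recycles glutathione rose, while neither gene of the enzyme that makes its precursor passed the test.

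Txnrd1 (ENSMUSG00000020250), cytosolic thioredoxin reductase, lies on the plus strand at chr10:82833951-82897712 and plays the same part for thioredoxin. It had 219, 159, 137 and 167 CPM in the vehicle libraries and 456, 409, 428 and 401 CPM after LPS. The LPS libraries lay close to each other and above every vehicle library (log2 fold change 1.31, SE 0.15, edgeR adjusted p = 4.89e-05). Srxn1 (ENSMUSG00000032802), sulfiredoxin, restores peroxiredoxins that hydrogen peroxide has overoxidised, and lies on the plus strand at chr2:152105516-152111376. Its vehicle libraries had 92.2, 55.0, 48.0 and 62.8 CPM and its LPS libraries 221, 250, 397 and 225 CPM. Srxn1 rose in every pair, with LPS replicate 3 above the other LPS libraries (log2 fold change 2.08, SE 0.25, edgeR adjusted p = 7.54e-05).

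Hmox1 (ENSMUSG00000005413), heme oxygenase 1, breaks heme down to biliverdin, carbon monoxide and iron and lies on the plus strand at chr8:75093621-75100589. It had 740, 387, 404 and 449 CPM in the vehicle libraries and 2954, 2710, 4114 and 2623 CPM after LPS. It was the most abundant member in both groups, and the groups did not overlap. The mean rose 6.26-fold, with a log2 fold change of 2.65 (SE 0.26, edgeR adjusted p = 1.81e-05). Nqo1 (ENSMUSG00000003849), a quinone reductase long used as a readout of NRF2, lies on the minus strand at chr8:107388225-107403206. It was scarce, at 4.34, 1.00, 0.856 and 1.10 CPM in the vehicle libraries and 20.9, 3.10, 6.25 and 2.16 CPM after LPS. Vehicle replicate 1 lay above LPS replicates 2 and 4, so the groups overlapped, yet within each same-numbered pair the LPS library was higher. The log2 fold change of Nqo1 was 2.15 (SE 0.79, edgeR adjusted p = 0.0362), and with the replicate number as a block the adjusted p was 9.48e-04. Without LPS replicate 1 the log2 fold change was 1.09 (edgeR adjusted p = 0.158). It was 3.08 without vehicle replicate 1, and without vehicle replicates 2, 3 or 4 the log2 fold change was 2.00, 1.98 and 2.02, none past the test (edgeR adjusted p = 0.0860, 0.0784 and 0.0850). LPS replicate 1 had the highest summed astrocyte markers, 125 CPM, of which 98.1 CPM were Gja1, which rose in every LPS library. Slc1a2 (9.52 CPM), Aldoc (4.91 CPM) and Gfap (2.63 CPM) were, like Gja1, highest in LPS replicate 1 among the LPS libraries. Aldh1l1, Slc1a3, Aqp4, Sox9, Fgfr3 and S100b were highest in another LPS library. A link of these markers to Nqo1 was not tested.

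Promoter sequence was set beside these changes, since members that rose, fell or stayed can be compared for the letters of the antioxidant response element. Windows of 300 bases from RefSeq (GRCm38.p6, 250 before and 50 after the start of a transcript) were at hand for 7 members, Nfe2l2, Keap1, Nqo1, Gclm, Srxn1, Txnrd1 and Slc7a11. The core of the element was searched as TGACNNNGC on both strands, an AP-1 site as TGANTCA and an amino acid response element as TGATGCAA, also on both strands. Core and AP-1 letters can overlap in a promoter. Matches are shown in capitals on the strand of the gene, and positions count from the start site.
Nfe2l2, chr2:75704614-75704913, minus strand, 1 core match at −240: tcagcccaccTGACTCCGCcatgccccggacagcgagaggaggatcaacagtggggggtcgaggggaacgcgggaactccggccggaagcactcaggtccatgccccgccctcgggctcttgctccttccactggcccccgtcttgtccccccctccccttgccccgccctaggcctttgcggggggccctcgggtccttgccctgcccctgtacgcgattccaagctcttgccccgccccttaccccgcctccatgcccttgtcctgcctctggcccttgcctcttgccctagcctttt
Gclm, chr3:122245307-122245606, plus strand, 1 core match (on the other strand) at −134: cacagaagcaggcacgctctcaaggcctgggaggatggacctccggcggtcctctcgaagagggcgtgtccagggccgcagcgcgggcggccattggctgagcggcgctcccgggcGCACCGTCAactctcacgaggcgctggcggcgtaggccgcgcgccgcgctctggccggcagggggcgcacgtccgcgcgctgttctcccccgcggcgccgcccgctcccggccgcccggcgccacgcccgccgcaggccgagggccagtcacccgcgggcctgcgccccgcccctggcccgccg
Srxn1, chr2:152105274-152105573, plus strand, AP-1 letters at −102 and −45 and 1 core match (on the other strand) at 29: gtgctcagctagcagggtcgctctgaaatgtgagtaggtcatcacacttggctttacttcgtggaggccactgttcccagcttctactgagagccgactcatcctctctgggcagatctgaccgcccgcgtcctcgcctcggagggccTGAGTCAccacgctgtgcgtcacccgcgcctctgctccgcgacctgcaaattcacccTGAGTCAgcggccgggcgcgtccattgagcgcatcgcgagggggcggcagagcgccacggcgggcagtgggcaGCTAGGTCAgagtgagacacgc
Txnrd1, chr10:82858956-82859255, plus strand, the middle of 3 windows, 1 core match (on the other strand) at −92: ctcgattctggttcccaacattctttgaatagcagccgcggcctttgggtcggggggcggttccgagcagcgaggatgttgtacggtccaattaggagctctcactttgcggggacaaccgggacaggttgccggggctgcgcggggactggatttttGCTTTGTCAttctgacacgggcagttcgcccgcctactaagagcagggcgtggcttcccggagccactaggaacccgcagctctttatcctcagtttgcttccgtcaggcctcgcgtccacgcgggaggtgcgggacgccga
Slc7a11, chr3:50443564-50443863, minus strand, no core match but the amino acid response letters at −66 and, on the other strand, at −47: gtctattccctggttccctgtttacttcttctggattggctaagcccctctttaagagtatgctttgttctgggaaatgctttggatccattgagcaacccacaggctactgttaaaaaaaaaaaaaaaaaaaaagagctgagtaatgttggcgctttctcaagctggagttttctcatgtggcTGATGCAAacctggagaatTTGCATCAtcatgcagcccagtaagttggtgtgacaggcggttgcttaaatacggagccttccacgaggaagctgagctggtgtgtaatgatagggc

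The core was thus present in the windows of Nfe2l2, which fell, of Gclm, which did not pass the test, and of Srxn1 and Txnrd1, which rose. It was not in the 300 bases of Keap1, Nqo1 or Slc7a11, which all rose. Of 27025 genes with a window, 14.0% held the core, against 4 of 7 members and 12 of 46 other pathway genes. The AP-1 letters were in the window of 1 member, Srxn1, and in 8.97% of all genes. The amino acid response letters were in that of Slc7a11 alone among the members, with 2 matches, and in 1.03% of all genes. These matches describe the letters of the window and not binding.

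The members spanned a wide range of levels, compared here as CPM per kilobase of exon with the SD over 4 libraries. In vehicle, Hmox1 stood at 283 ± 94.5 and Nfe2l2 at 94.1 ± 10.7, each above the next gene in every library. Txnrd1 (24.1 ± 4.92), Srxn1 (22.9 ± 6.88), Gsr (17.2 ± 6.57), Gclm (10.2 ± 6.18), Keap1 (10.2 ± 1.90) and Gclc (9.11 ± 2.06) followed, with every neighbour in this order overlapping. Slc7a11 (1.47 ± 1.90) and Nqo1 (1.18 ± 1.08) came last and overlapped with each other. Both were highest in vehicle replicate 1, at 4.32 and 2.79 CPM per kilobase, still below the lowest vehicle library of Gclc (6.22).

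After LPS the order was another one. Hmox1 led at 1770 ± 394 CPM per kilobase, followed by Gsr at 140 ± 20.6 and Srxn1 at 96.9 ± 29.5, which overlapped. Nfe2l2 (59.8 ± 6.14), Txnrd1 (59.8 ± 3.44) and Slc7a11 (48.0 ± 15.3) formed a middle group of overlapping neighbours. Keap1 (16.7 ± 2.46) and Gclm (11.7 ± 2.74) overlapped, as did Gclc (6.79 ± 0.845) and Nqo1 (5.23 ± 5.62) at the bottom. Gsr moved from the fifth to the second place, Slc7a11 from the ninth to the sixth, and Nfe2l2 from the second to the fourth. Ranks of close neighbours depend on the length used, as with Nfe2l2 and Txnrd1, whose longest transcripts would put Txnrd1 above Nfe2l2 after LPS (117 against 91.8 CPM per kilobase).

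**Figure D3:**
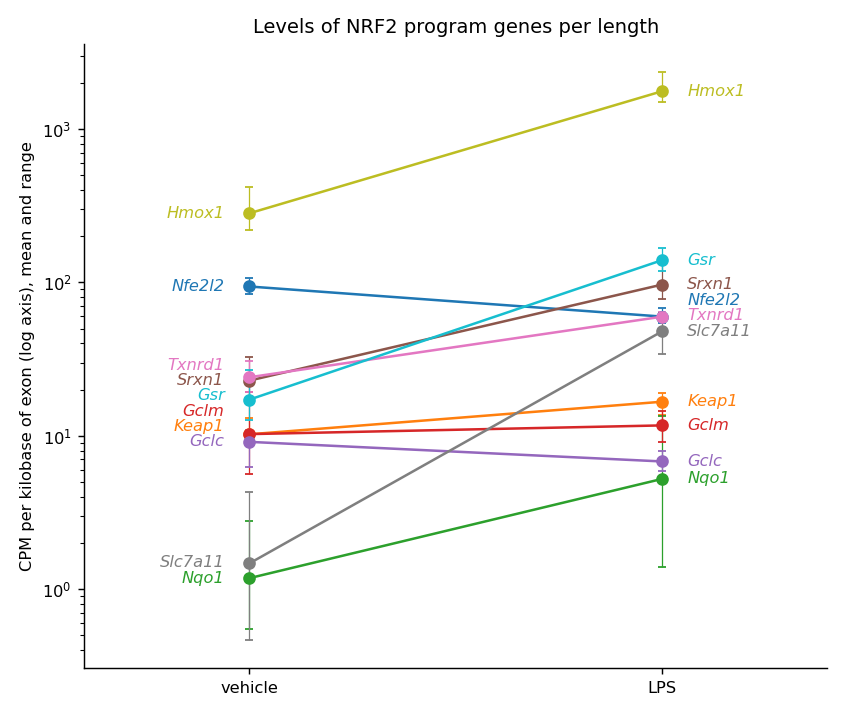
Mean CPM per kilobase of exon (log axis) of each gene in vehicle and after LPS, with bars from the lowest to the highest of 4 libraries. Slc7a11 climbs from 1.47 to 48.0 and Gsr from 17.2 to 140, while Nfe2l2 declines from 94.1 to 59.8.

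Libraries of 1 group were not alike for the program. Vehicle replicate 1 was the highest vehicle library for 8 of the 10 members, all but Nfe2l2 and Keap1, which were highest in vehicle replicate 3. Of all genes tested, 26.0% were highest in vehicle replicate 1. The excess over the mean of the other vehicle libraries was 8.35-fold for Slc7a11, 4.40-fold for Nqo1, 2.67-fold for Gclm, 1.93-fold for Gsr, 1.79-fold for Hmox1, 1.67-fold for Srxn1, 1.42-fold for Txnrd1 and 1.27-fold for Gclc. The median of this excess over the members was 0.79 on the log2 scale, against 0.00320 over all genes. The same library was the highest vehicle library for 29 of the 48 tested genes of the wider pathway. Its summed astrocyte, oligodendrocyte lineage and fibroblast markers, at 40.6, 222 and 1.47 CPM, were within the range of the other vehicle libraries, and its microglia and endothelial sums, at 8904 and 31.0 CPM, were the lowest of vehicle. Among single markers, Mbp (107 CPM), Cspg4 (24.0), Aldoc (9.52), Mag (6.16) and Aqp4 (2.77) were highest in vehicle replicate 1, and Cnp (69.4) was lowest there. The other astrocyte and oligodendrocyte lineage markers were highest in another vehicle library. The standing of vehicle replicate 1 for the members was noticed after the values were seen and has no test.

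Among the LPS libraries, replicate 3 was the highest for 6 members (Nfe2l2, Gclm, Gclc, Srxn1, Slc7a11 and Hmox1), beside 40.8% of all genes, and replicate 1 for Nqo1, Txnrd1 and Gsr. Nqo1 in LPS replicate 1 was 5.46-fold above the mean of the other LPS libraries. So Nqo1, the scarcest member, was highest in replicate 1 in both groups.

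**Figure D4:**
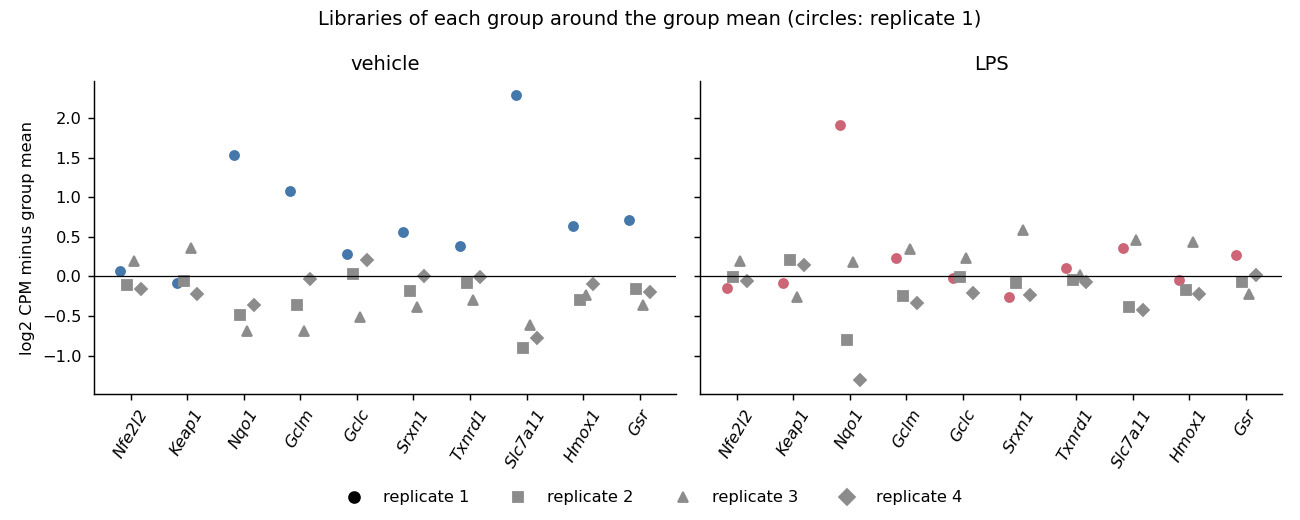
log2 CPM of each member minus the mean of its group, for the 4 vehicle libraries (left) and the 4 LPS libraries (right), with 1 symbol per replicate number. In vehicle the circles of replicate 1 lie above the other libraries for 8 of 10 genes, farthest for Slc7a11, and in LPS for Nqo1, Txnrd1 and Gsr.

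The wider pathway was read from 50 further genes in 6 lists by role, of which 48 were tested. After LPS 24 were higher, 13 lower and 11 did not pass, and their median log2 fold change was 0.43. These shares, beside 30.3% and 33.8% of all genes, were spread unevenly over the roles, and the difference between roles was not tested.

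Of 8 genes that control NRF2, 7 were higher and 1, Rbx1 of the ubiquitin ligase complex, was lower (median 1.11). The small MAF partner Maff rose most, from between 2.28 and 2.91 CPM to between 32.2 and 42.9 CPM (log2 fold change 3.91, SE 0.15, edgeR adjusted p = 1.05e-07). Sqstm1, the autophagy receptor p62, which can draw KEAP1 away from NRF2, rose from between 292 and 376 CPM to between 879 and 1750 CPM (2.06, SE 0.21, edgeR adjusted p = 2.30e-05). Exons of Mrnip on the opposite strand cover 17.3% of the exonic bases of Sqstm1. Nfe2l1, the relative of NRF2 that governs proteasome genes, rose by 1.55 (SE 0.13, edgeR adjusted p = 6.28e-06), opposite to Nfe2l2. The other small MAF genes, Mafg and Mafk, Bach1, a competitor of NRF2, and Cul3 were also higher, by 0.89, 1.32, 0.64 and 0.58. The raw counts of Mafk, Bach1 and Cul3 overlapped between the groups, so these rises depend on the scaling of the libraries. Rbx1 (−0.51, SE 0.15, edgeR adjusted p = 0.0157) was no longer called without LPS replicate 2 or without LPS replicate 4.

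Of 5 further genes of glutathione synthesis and transport, 3 were higher and none was called lower (median 1.44). Ggct, which cuts gamma-glutamyl peptides, rose from at most 2.03 CPM to at least 6.46 CPM (log2 fold change 2.46, SE 0.26, edgeR adjusted p = 3.25e-05). Abcc1, an exporter of glutathione conjugates, rose by 1.81 (SE 0.28, edgeR adjusted p = 3.55e-04). Gss, which completes glutathione, stood at 0.24 (SE 0.13, edgeR adjusted p = 0.131), and Oplah, which acts on the 5-oxoproline that GGCT releases, at −0.84 (SE 0.34, edgeR unadjusted p = 0.0328, adjusted p = 0.0510). With the replicate block Oplah was called lower (edgeR adjusted p = 0.0180), which made the count of lower genes 1, as it also was with DESeq2, upper quartile normalization, either other filter or without LPS replicate 1.

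Of 10 genes that use glutathione, 8 were tested, 2 were higher and 3 lower (median −0.03). Glrx, a glutaredoxin that removes glutathione from proteins, rose from between 78.5 and 108 CPM to between 1219 and 1392 CPM (log2 fold change 3.72, SE 0.15, edgeR adjusted p = 1.44e-07). Against this, the glutathione peroxidase Gpx1 fell from between 184 and 322 CPM to between 45.5 and 51.6 CPM (−2.27, SE 0.18, edgeR adjusted p = 4.87e-06). Gsto1, a transferase of the omega class, fell by 2.36 (SE 0.22, edgeR adjusted p = 1.52e-05). Gstp1, Mgst1 and Mgst2 did not pass, and Gsta3 and Gsta4 were too low to be tested.

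Of 9 thioredoxin and peroxiredoxin genes, 4 were higher and 2 lower (median 0.30). Prdx5, a peroxiredoxin found in mitochondria, peroxisomes and cytosol, rose from between 144 and 330 CPM to between 1376 and 2832 CPM (log2 fold change 3.30, SE 0.33, edgeR adjusted p = 2.27e-05). Exons of Trmt112 on the opposite strand cover 19.1% of its exonic bases. Prdx1, a cytosolic peroxiredoxin that SRXN1 restores, rose by 2.22 (SE 0.34, edgeR adjusted p = 3.48e-04), and 8.81% of its 50-base windows also occur in other genes. Txn1, cytosolic thioredoxin, the substrate of TXNRD1, rose by 1.92 (SE 0.19, edgeR adjusted p = 1.85e-05). The lower genes were Txnrd2 and Prdx3, at −0.99 and −0.61 (SE 0.15 and 0.086, edgeR adjusted p = 2.53e-04 and 1.85e-04), named after their values were seen. Both encode mitochondrial proteins, as does Txn2 (−0.09, edgeR adjusted p = 0.519), which did not pass, and PRDX5 is partly mitochondrial too. Prdx6 and Txnip did not pass.

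Of 12 genes that handle heme, iron, quinones and carbonyls, 5 were higher and 4 lower (median 0.37). Fth1, the ferritin heavy chain that stores the iron that heme oxygenase frees, rose from between 2075 and 5225 CPM to between 27806 and 34505 CPM (log2 fold change 3.17, SE 0.31, edgeR adjusted p = 1.68e-05). Ephx1, a microsomal epoxide hydrolase, fell from between 31.6 and 49.1 CPM to between 1.19 and 1.44 CPM (−4.92, SE 0.18, edgeR adjusted p = 9.70e-08). The carbonyl reductase Cbr3 fell by 2.38 (SE 0.23, edgeR adjusted p = 1.83e-05). Ftl1 (−0.34, edgeR adjusted p = 0.155) shares 58.4% of its 50-base windows with other genes, so unique alignment can hide its reads. Akr1b8 did not pass. Blvra, a biliverdin reductase, was a marginal lower call (−0.29, SE 0.11, edgeR adjusted p = 0.0459), and with the replicate block it did not pass (edgeR adjusted p = 0.0926). Blvrb, the other biliverdin reductase gene of the list, rose from between 58.8 and 102 CPM to between 131 and 287 CPM (1.57, SE 0.26, edgeR adjusted p = 4.59e-04). Its raw counts overlapped, at 1701 to 2916 in vehicle and 2808 to 4798 after LPS. The number of lower genes in this list stayed at 4 with upper quartile normalization and with at least 10 counts in every library, and was 3 under all other alternatives, leaving out any library included. With the block Akr1a1 was called higher (edgeR adjusted p = 0.0449, against 0.0989 without it).

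NADPH feeds GSR, TXNRD1 and NQO1 alike. Of 6 genes listed for its supply, 3 were higher (G6pdx, Pgd and Me1) and 3 lower (Idh1, Taldo1 and Tkt), with a median of −0.09. Pgd (0.49, SE 0.15, edgeR adjusted p = 0.0168) overlapped in CPM and was no longer called with upper quartile normalization. Raw counts overlapped for Pgd (8549 to 12212 in vehicle, 7653 to 10348 after LPS) and Me1 (73 to 230, 175 to 243). Without LPS replicate 2 or any 1 vehicle library the count of lower genes was 2, with Taldo1 or Tkt not called. Taldo1 (−1.08) and Tkt (−0.66) encode pentose phosphate enzymes that do not themselves make NADPH, so the even split does not describe NADPH-making enzymes alone. G6pdx, which opens the pentose phosphate pathway, rose from between 114 and 133 CPM to between 262 and 477 CPM (log2 fold change 1.49, SE 0.18, edgeR adjusted p = 8.10e-05). Me1, malic enzyme 1, rose by 1.31 (SE 0.36, edgeR adjusted p = 9.70e-03). Idh1, cytosolic isocitrate dehydrogenase, fell from between 196 and 298 CPM to between 20.2 and 28.1 CPM (−3.32, SE 0.18, edgeR adjusted p = 5.81e-07). Exons of Ikbkg on the opposite strand cover 13.6% of the exonic bases of G6pdx, and 28.3% of the windows of Me1 also occur in other genes.

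**Figure D5:**
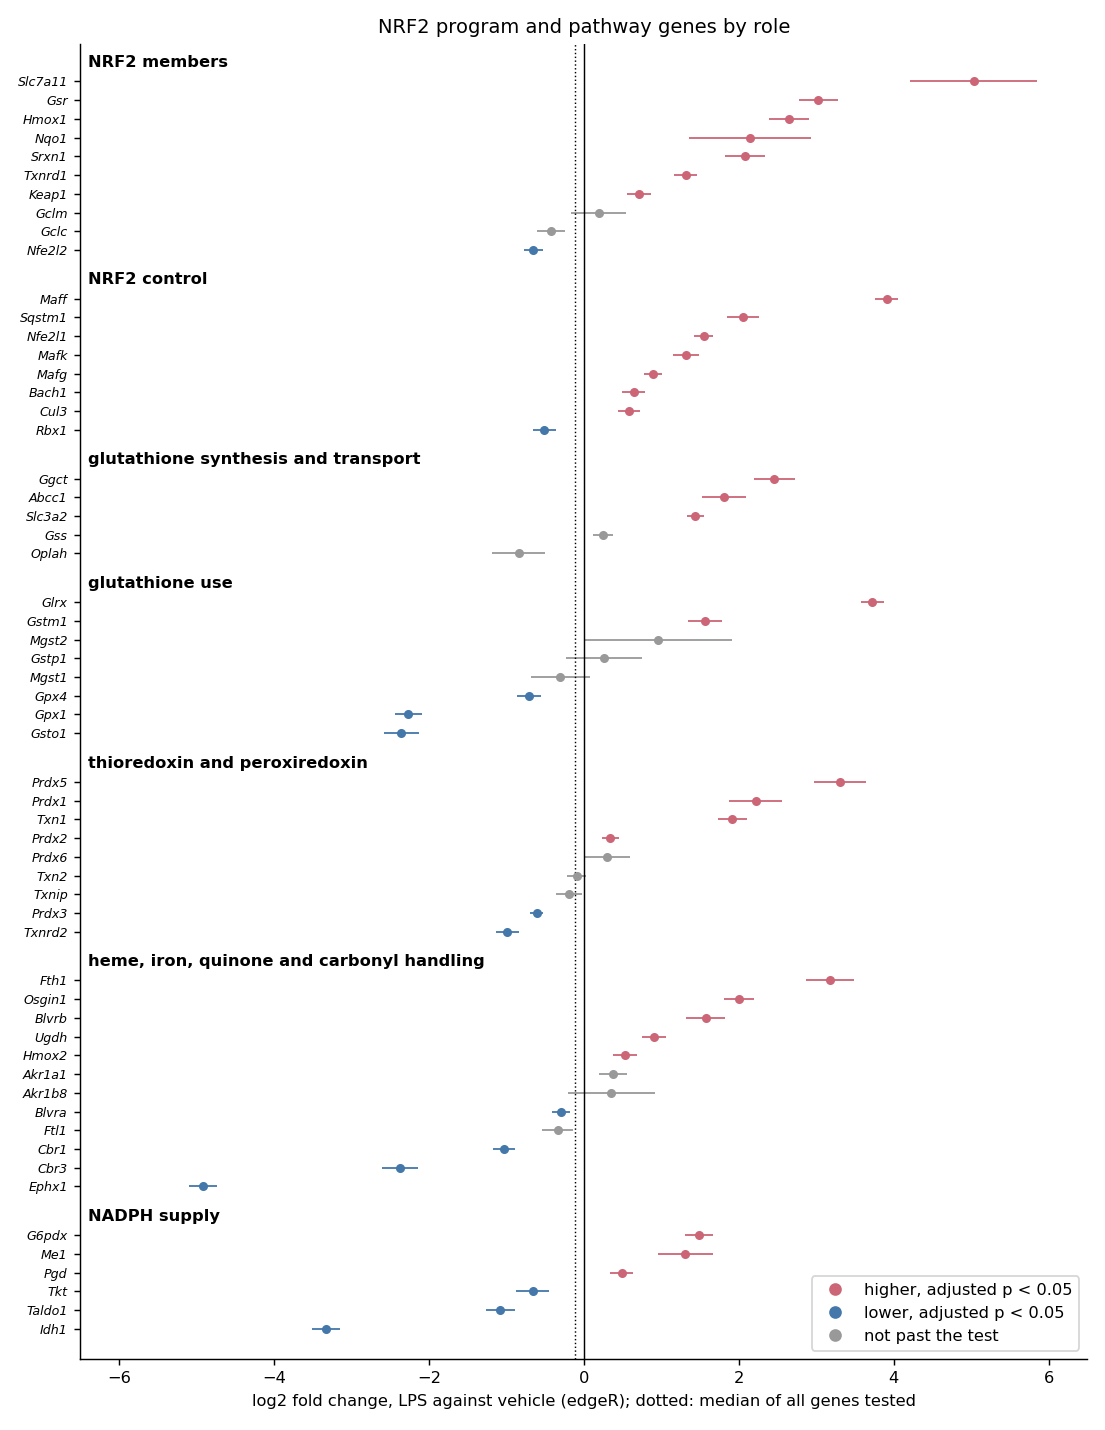
log2 fold change of LPS over vehicle with its SE (edgeR) for the 10 members and the 48 tested pathway genes, grouped by role, red for higher and blue for lower at an adjusted p under 0.05 and grey for not past the test. The dotted line is the median of all genes tested, −0.11. Slc7a11 lies farthest to the right at 5.03 and Ephx1 farthest to the left at −4.92.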

How the data were processed

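RNA of primary mouse microglia, 4 libraries with vehicle and 4 with 5 µg/ml LPS for 24 h, was sequenced in single-end reads. The sample labels and the methods of the study name different library kits (one stranded) and sequencers. The authors aligned the reads to GRCm38 with GSNAP and counted uniquely aligned reads with HTSeqGenie, and they deposited raw counts per Ensembl gene. The annotation release and the use of strand are not given in the sources used here.

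Symbols, positions and exon lengths were taken from GENCODE vM21, and 52403 of 52636 identifiers matched. Counts were tested with edgeR 4.0.16 in R 4.3.3 (TMM, filterByExpr with a minimum count of 10 and total of 15, quasi-likelihood test, two-sided, Benjamini-Hochberg, threshold 0.05). The SE was the absolute log2 fold change over the square root of F. The fit was run on simulated counts in which only a small part of the genes changed. That run could not check the scaling of data in which 64.1% of genes were called. Alternatives were DESeq2 1.42.0, its size factors, upper quartile normalization, other filters, a replicate block and leaving out each library. Ratios used a pseudocount of 0.5 and exact permutation over 70 divisions (scipy 1.17.1). Library totals were 20071921 to 30604447 counts, and counting error is separate from the spread between libraries.

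Named genes were the 10 members and, in each pathway list, up to 3 called genes of largest change and log2 CPM averaging 1 or more, with the other genes that were not called. Further called genes, such as Blvra, Blvrb, Pgd, Taldo1 and Tkt, were named after their values were seen. The members, lists and promoter motifs were chosen with earlier results of these data known. As a check of pairing, deviations from the group means were compared between same-numbered libraries over 8382 genes (log2 CPM averaging 3 or more), and r was 0.361, 0.183, 0.183 and 0.130 by replicate. Each exceeded 0.1, so the numbers were used as pairs in the replicate block and in the permutation of signs within pairs. The main edgeR fit and the exact permutation between the groups were unpaired. No source names a shared culture. Replicates 2 and 4 were not told apart by this check: r was 0.154 for vehicle 2 with LPS 4 and 0.141 for vehicle 4 with LPS 2, and their counts were the most alike within each group (chi-square per degree of freedom 10.1 in vehicle and 6.45 after LPS, against 32.8 to 140 for the other pairs). The labels give no sequencing batch. P-values set the difference between the groups against the spread between these libraries. Beyond the label of biological replicates, the sources used here do not say which cultures the libraries came from.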

Additional observations from a re-analysis of the deposited data

Results flagged for a closer look

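In groups of 4 libraries, a library was flagged when its gap to the nearest other as a share of the range of its group exceeded Dixon's 95% critical value. Of 26 groups examined (10 genes and 3 ratios, in vehicle and after LPS), 3 were flagged, where chance flags about 1 in 20. All 3 were vehicle replicate 1 at the high end. The gap of Slc7a11 was 0.908 of the range of log2 CPM, that of Nqo1 was 0.851, and that of the log2 ratio of Slc7a11 to Slc3a2 was 0.876. The last shares its Slc7a11 counts with the first and is not a separate flag.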

How the results depend on the processing

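Every log2 fold change of the 10 members kept its sign in all 140 alternative values, and 130 kept their side of the threshold. The 10 that did not concerned Nqo1, Gclm and Gclc, and those that leave out a library are given above for Nqo1 and Gclm. The 18 pathway genes named for the largest changes among those called kept both in all 252 alternative values. Smaller changes, of Oplah, Akr1a1, Blvra, Rbx1, Pgd, and Taldo1 or Tkt, gained or lost a call as given above. Prdx2 (log2 fold change 0.34) was no longer called with upper quartile normalization, without a filter, or without vehicle replicate 2 or 4. Counts of members called higher were 6 to 8. The count called lower was 2 with upper quartile normalization, 2 without a filter and 2 with at least 10 counts in every library (each adding Gclc), and 1 to 2 when 1 library was left out. With upper quartile normalization the median of all genes moved by −0.156 and that of the members was 1.54. The TMM factors were 1.21 to 1.32 for the vehicle libraries and 0.701 to 0.833 for the LPS libraries. Small fold changes thus depended on this scaling, and every alternative for the fold changes scaled the libraries for composition too.

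With the replicate block the differences were −1.36 for Nfe2l2 to Keap1 and 4.28 for Slc7a11 to Slc3a2, each with an adjusted exact p of 0.125, the floor of a design of 4 pairs. Dropping libraries in turn gave −1.52 to −1.29 and 3.95 to 5.05, and 3 libraries against 4 allow no p under 0.0571. The block changed no member call. The number of members at another rank by level was 2 in vehicle and 3 after LPS with the longest transcript length, 2 after LPS with library totals, and, leaving out each library, 0 to 5 in vehicle and 0 to 2 after LPS. Nqo1, near 1 CPM in most vehicle libraries, is the member whose precision depth limits most.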

Other observations

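Among 11090 tested genes whose log2 CPM averaged 1 or more, the genes outside the lists whose pattern over the 8 libraries was nearest to that of Nfe2l2 were Sdha, Idh3g and Mapk14. Their root mean square distances on the log2 CPM scale, each gene centred on its mean, were 0.0663, 0.0665 and 0.0804. The nearest to Hmox1 were Gm11613, Dubr and Raet1d, at 0.155, 0.190 and 0.194. These distances describe 8 libraries and carry no test.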
